A study of Mus musculus with 4 samples.

Results

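The cells described here were the 103 cells of the day 11 library that held 2 or more UMIs (unique molecular identifiers, each counting 1 captured transcript) of *Atoh1*. They were chosen by that count alone among cells with at least 2000 UMIs and a share of mitochondrial (mt-) UMIs under 20%, so the level of *Atoh1* itself is a description and not a finding. They made up 103 of 8730 such cells at day 11 (1.18%, 95% exact binomial interval 0.964 to 1.43%) and 103 of 29190 in the 4 libraries. The libraries came from gastruloids, aggregates of mouse embryonic stem cells of the Zx1 line, labelled wild type, which were dissociated at day 4, 5, 6 or 11. All aggregates had been given a Wnt agonist early in culture. From day 4 the protocol added bFGF, VEGF and ascorbic acid to favour cardiac differentiation, and it returned to basal N2B27 medium before day 11. The day 4 gastruloids were taken as that step began and those of days 5 and 6 during it. Only those of day 11 had reached the later basal medium. Each day was 1 library made from several pooled gastruloids of this single line, so there was no replicate, no difference could be tested, and every interval below covers counting error only.

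The *Atoh1* cells were compared with 705 other neural cells of the same library (*Sox2* of 1 or more and *Hes5* plus *Fabp7* of 3 or more UMIs) and with all 8627 other day 11 cells. A set of 823 neurons outside both groups (*Elavl3*, *Elavl4* and *Stmn2* together 3 or more UMIs) gave a further reference, and 485 endothelial cells (*Pecam1* and *Cdh5*) served as cells that should lack neural transcripts. Levels are given as CPM, the UMIs of a gene per 1000000 UMIs summed over the cells of a set, with exact 95% Poisson intervals. A gene was called higher or lower when its (CPM + 10) differed at least 2-fold among 15163 genes with a UMI in 50 or more cells. By this measure 239 genes (1.58%) were higher and 269 (1.77%) lower than in the other neural cells. Against all other day 11 cells, 399 (2.63%) were higher and 562 (3.71%) lower, and against the neurons 131 (0.864%) were higher and 292 (1.93%) lower.

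*Atoh1* encodes a basic helix-loop-helix transcription factor that binds E-box sequences and starts a differentiation programme in several unrelated tissues. In the neural tube it marks the dorsalmost progenitors beside the roof plate, which become the dI1 interneurons of the spinal cord, and in the hindbrain it marks the rhombic lip, the source of cerebellar granule cells. It is also required for inner ear hair cells, Merkel cells and the secretory cells of the intestine. As *Atoh1* cells of the neural tube leave the cell cycle they switch on the homeobox genes *Barhl1*, *Barhl2*, *Lhx2* and *Lhx9*.

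The neural label was checked against markers. Every one of the 103 cells held UMIs of the 13 pan-neural markers (median 46 UMIs a cell), and 1 of the 103 had none of the 15 pan-neuronal markers (median 45). The pan-neural markers were also found elsewhere, at a summed 3159 CPM against 858 in all other day 11 cells and 239 in the endothelial cells. Holding some of their UMIs is therefore no mark of a neural cell by itself. *Sox2*, 1 of the 13, was detected in 69 of the 103 cells (67.0%). Of these 13, 6 were called higher than in all other day 11 cells. Against the other neural cells 1 was called higher and 2 lower. Of the pan-neuronal markers, 12 of 15 were called higher than in all other day 11 cells, and *Tubb3* (neuronal tubulin) was at 1301 CPM against 110. The summed neural crest markers stood at 20.6 CPM and those of macrophages and blood at 0.529 CPM, with 8 of the 9 blood markers at 0. Of the 12 cardiomyocyte markers, all 12 were called lower than in the other day 11 cells, at a summed 2321 CPM against 15872, and none was at 0. That cardiac signal was uneven, since 30 of the 103 cells had no UMI of the list and 5 cells held 95.4% of its UMIs. Summed endothelial markers were at 133 CPM, against 2555 in the endothelial cells themselves. Of the markers of other cell types called higher than in the other neural cells, 4 were held by few cells. *Cdh5*, an endothelial cadherin, gave 63 UMIs (33.3 CPM against 7.72), of which 1 cell held 62. *Epcam*, an epithelial adhesion molecule, gave 66 UMIs in 4 cells (34.9 CPM against 2.90), of which 1 cell held 58. The epithelial keratins *Krt8* and *Krt18* gave 33 and 42 UMIs in 4 and 5 cells (17.5 and 22.2 CPM against 3.102 and 3.629). None of these 4 was higher without cells over 50000 UMIs, with log2 differences of -0.187, -0.323, -0.004 and -0.036, or without the top doublet scores.

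*Atoh1* (ENSMUSG00000073043, chr6:64729125-64731245 on the plus strand of GRCm38) gave 2 to 25 UMIs in these cells, with a median of 6. In all it was at 405 CPM (377 to 435). The cells just inside the cutoff were 15 with 2 UMIs, and those just outside were 30 with 1 UMI. These 103 cells held 766 of the 796 *Atoh1* UMIs in the library's kept cells (96.2%). Of the 30 cells with 1 UMI, 19 fell among the 705 other neural cells (2.70%, 1.63 to 4.18%) and 8 among the 823 neurons (0.972%, 0.421 to 1.91%). None was among the 485 endothelial cells, which allows a share of up to 0.619%, although these were deeper (median 23135 UMIs, against 15538 in the other neural cells and 10102 in the neurons). The *Atoh1* cells themselves had 2424 to 176705 UMIs (median 11130), and the deepest of them held 9.35% of their UMIs.

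Before day 11 the gene was close to absent. The kept cells of day 4 held 4 *Atoh1* UMIs in 7202 cells, those of day 5 held 0 in 7408, and those of day 6 held 10 in 5850. A count of 2 or more was met by 0 cells at days 4 and 5, which allows shares of up to 0.0417% and 0.0405%, and by 2 cells at day 6, with 3 and 6 UMIs. Cells of the earlier days were sequenced more deeply (median 25335 to 28401 UMIs a cell) than those of day 11 (12082), and the libraries shared 5 to 23 barcodes in each pair.

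The listed homeodomain and related factors found in dI1 neurons and rhombic lip derivatives were higher as a group, though some are shared with other neurons (below). All 8 genes of this list were called higher than in the other neural cells and 7 of 8 higher than in all other cells. The median log2 difference was 2.50 over the other neural cells, against -0.02 over all genes tested. With a pseudocount of 50 CPM, *Pou4f1*, *Nhlh1* and *Mab21l2* came under 2-fold over the other neural cells (log2 0.764, 0.859 and 0.501). *Barhl1*, a BarH-like homeobox factor, gave 0 to 10 UMIs a cell with a median of 2, in 75 of 103 cells. Its level was 113 CPM (98.1 to 129) against 0.264 in the other neural cells, where 3 of 705 cells held a UMI. *Barhl2*, its paralogue, gave 0 to 9 UMIs a cell in 46 cells and stood at 78.8 CPM (66.7 to 92.6) against 1.45. The LIM-homeodomain gene *Lhx2* was at 117 CPM (102 to 133) against 4.03, with 0 to 21 UMIs a cell in 47 cells. Its relative *Lhx9* was at 105 CPM (90.7 to 120) against 2.51, with 0 to 16 UMIs a cell in 46 cells. Cells of both groups overlapped at 0 UMIs for each of these genes.

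Against the 823 neurons, the same 4 factors were again called higher. *Barhl1* was 12.1-fold (9.59 to 15.4) and *Lhx2* 6.34-fold (5.24 to 7.68) the level of the neurons, *Barhl2* 3.73-fold (3.03 to 4.59) and *Lhx9* 3.31-fold (2.77 to 3.94). With a pseudocount of 50 in place of 10 CPM, *Barhl2* and *Lhx9* came under 2-fold over the neurons (log2 0.857 and 0.922). The neurons were unlike one another in these genes. A subset of 64 of them, chosen by *Barhl1* and *Barhl2* counts, is described at the end. In it *Lhx2* was at 161 CPM and *Lhx9* at 351, above the *Atoh1* cells (117 and 105). The other members of the list were shared with neurons at large. *Pou4f1*, a POU factor of several sensory neuron classes, was at 46.6 CPM against 49.9 in neurons. *Nhlh1* and *Nhlh2*, bHLH genes of newly born neurons, were at 52.9 against 25.9 and 124 against 220 CPM. *Mab21l2* was at 31.2 CPM against 114 and was called lower than in neurons.

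**Figure D1:**
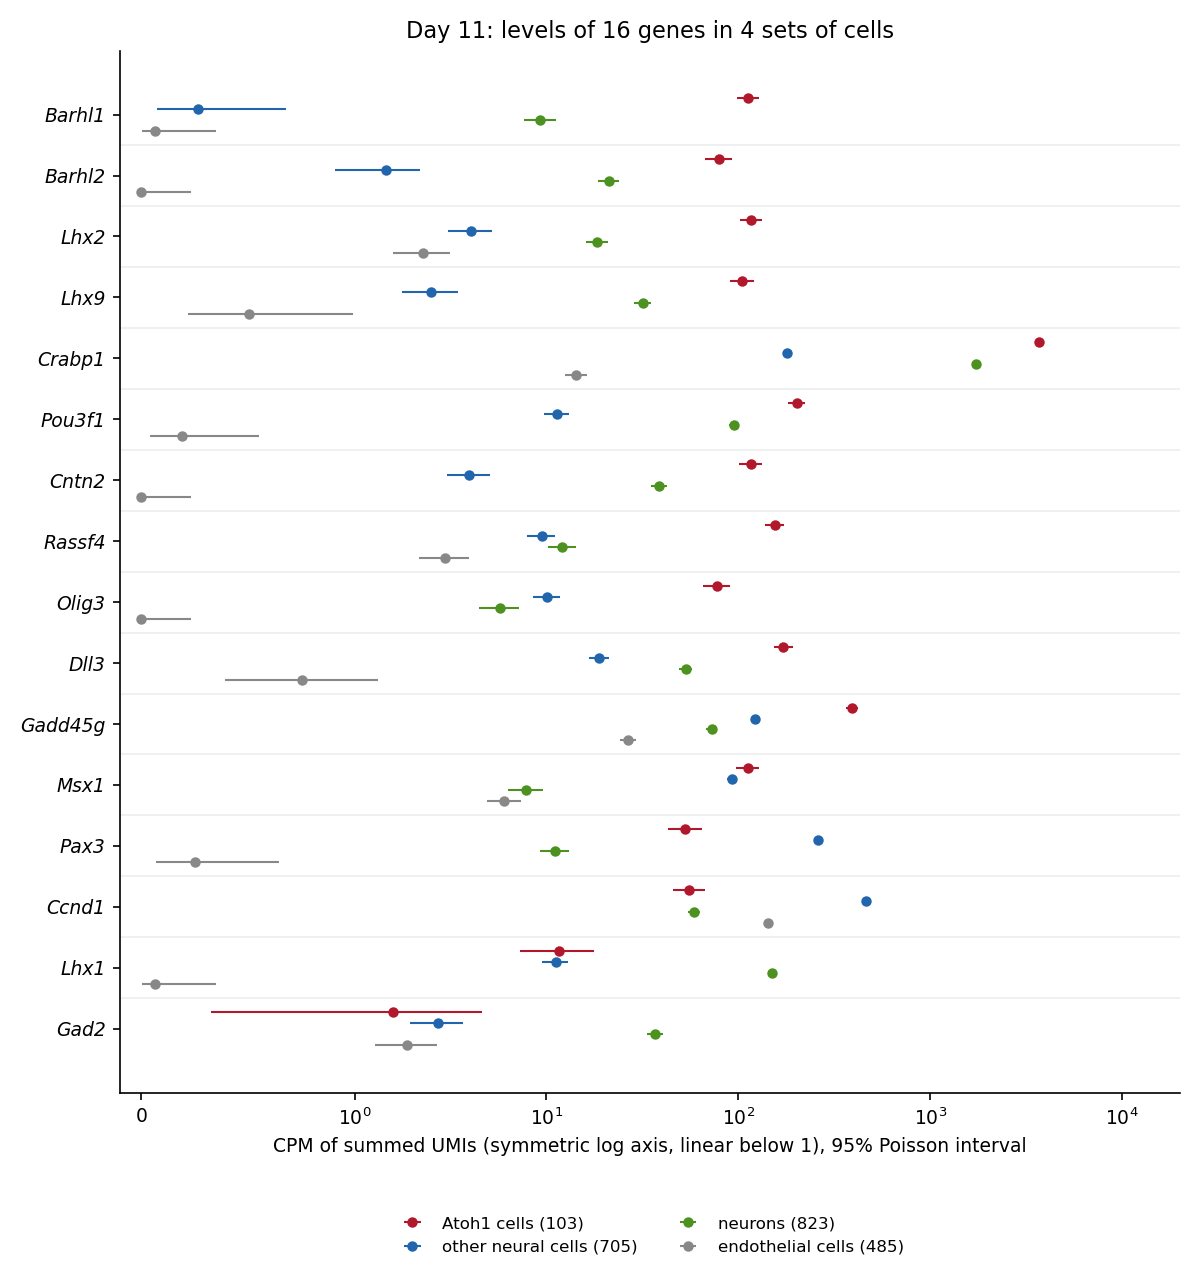
Level of 16 genes (vertical axis) in 4 sets of day 11 cells, as CPM of summed UMIs on a symmetric log axis that is linear below 1; points are the sums and bars the 95% Poisson intervals. *Barhl1*, *Barhl2*, *Lhx2* and *Lhx9* lay between 78.8 and 117 CPM in the *Atoh1* cells, to the right of all other sets, whereas *Pax3* and *Ccnd1* were highest in the other neural cells and *Lhx1* and *Gad2* in the neurons.

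Detection of the 4 factors in single cells was heterogeneous. Of the 103 *Atoh1* cells, 20 held none of them, 26 held 1, 12 held 2, 16 held 3 and 29 held all 4. *Barhl1* was the most widely detected, and of the 46 cells with *Barhl2* 43 also held *Barhl1*, whereas 32 cells held *Barhl1* without *Barhl2*. *Lhx2* and *Lhx9* coincided in 33 cells, with 14 cells holding *Lhx2* alone of the pair and 13 holding *Lhx9* alone. At a common depth of 5000 UMIs, which left out 2 *Atoh1* cells, 16 other neural cells and 21 neurons, 68 of 101 *Atoh1* cells held at least 1 of the 4 (67.3%, 57.3 to 76.3%). The share was 2.32% (1.33 to 3.74%) in the other neural cells, 11.8% (9.69 to 14.3%) in neurons and 0.644% (0.133 to 1.87%) in endothelial cells. Without thinning these were 83 of 103 *Atoh1* cells, 37 of 705 other neural cells and 132 of 823 neurons. The factors were not confined to these sets. Of the 7099 kept cells outside all 3 of them, 585 held at least 1 of the 4. Both *Lhx2* and *Lhx9* were held by 102 of these cells, and *Barhl1* or *Barhl2* by 7.

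**Figure D2:**
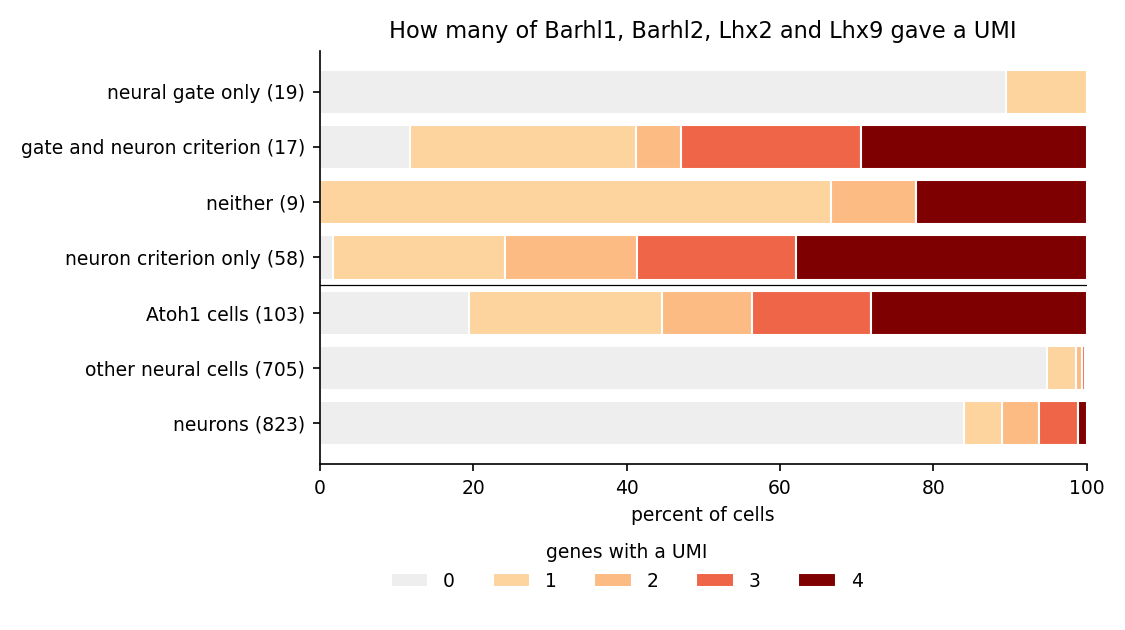
Percent of cells (horizontal axis) in which 0, 1, 2, 3 or 4 of *Barhl1*, *Barhl2*, *Lhx2* and *Lhx9* gave a UMI, without thinning, for the 4 classes of *Atoh1* cells described further on, all 103 *Atoh1* cells, the 705 other neural cells and the 823 neurons. In the *Atoh1* cells 20 of 103 held none of the 4, against 668 of 705 other neural cells and 691 of 823 neurons.

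The start regions of these genes were searched on both strands for 3 E-box hexamers (RefSeq starts on GRCm38.p6, 250 bases before to 50 after each start). These were CAGATG, which reads CATCTG on the opposite strand, and its relatives CAGCTG and also CATATG, which are their own reverse complements. Among 32851 such windows of the genome 33.4% held at least 1 of the 3 hexamers, 17.2% held CAGATG, 16.3% CAGCTG and 3.91% CATATG. All 5 genes (*Atoh1*, *Barhl1*, *Barhl2*, *Lhx2* and *Lhx9*) had windows in the table, 7 in all. Both windows of *Barhl1* held CAGCTG, the second window of *Lhx2* held CAGATG after its start, and the windows of *Atoh1*, *Barhl2*, *Lhx9* and the other window of *Lhx2* held none of the 3. The 250 bases upstream are shown for *Barhl1*, the member with the widest detection, at both of its starts (minus strand, chr2:28916669-28916918 and chr2:28912496-28912745), and for *Atoh1*, the gene that chose the cells (plus strand, chr6:64728875-64729124), with the hexamer in capitals. A match or its absence in this window says nothing of binding.
*Barhl1*, upstream start: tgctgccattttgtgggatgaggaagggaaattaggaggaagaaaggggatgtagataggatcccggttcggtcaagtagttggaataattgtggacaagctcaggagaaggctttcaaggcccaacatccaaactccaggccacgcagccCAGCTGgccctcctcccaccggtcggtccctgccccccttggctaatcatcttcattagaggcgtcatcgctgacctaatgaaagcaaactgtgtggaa
*Barhl1*, downstream start: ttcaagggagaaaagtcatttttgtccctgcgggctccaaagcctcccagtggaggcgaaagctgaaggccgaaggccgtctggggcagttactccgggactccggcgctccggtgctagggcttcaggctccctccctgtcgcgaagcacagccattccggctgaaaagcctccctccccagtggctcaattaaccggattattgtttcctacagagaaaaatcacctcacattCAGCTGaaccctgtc
*Atoh1*: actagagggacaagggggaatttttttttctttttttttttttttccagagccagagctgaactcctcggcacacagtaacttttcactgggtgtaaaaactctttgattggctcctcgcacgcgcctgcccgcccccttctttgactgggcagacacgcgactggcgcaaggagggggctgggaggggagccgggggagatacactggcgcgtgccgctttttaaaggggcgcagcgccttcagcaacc

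The 12 genes with the highest ratio over the other neural cells included, after *Atoh1* itself, *Crabp1*, *Barhl1*, *Pou3f1*, *Lhx9*, *Lhx2*, *Cntn2*, *Gm28050*, *Epha5*, *Rassf4* and *Barhl2*. *Crabp1*, a cytoplasmic retinoic acid binding protein, had a median of 29 UMIs a cell (0 to 483) and reached 3688 CPM (3602 to 3776) against 180 in the other neural cells and 1733 in the neurons. *Rassf4*, a Ras-association domain gene, stood out from both references, at 154 CPM (137 to 173) against 9.44 and 12.1, and was detected in 80 of 103 cells. *Pou3f1*, a POU factor, was at 201 CPM against 11.3 and 94.6, and *Epha5*, an ephrin receptor of growing axons, at 230 against 17.8 and 44.3. In the 64 neurons chosen by *Barhl1* and *Barhl2* counts, *Crabp1* was at 9093 CPM and *Pou3f1* at 654.5, above the *Atoh1* cells. *Gm28050* is annotated as a lincRNA on the minus strand of chr5:106500894-106574718, while *Barhl2* lies on the same strand at chr5:106452523-106458166. It was at 129 CPM (113 to 146) against 5.48 in the other neural cells, in 67 of 103 cells.

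Over all other day 11 cells the highest 12 also held *Rnd2*, *Pou3f2*, *Igfbpl1*, *Map2*, *Tubb3*, *Dll3* and *Dcc*. *Rnd2*, a gene of migrating neurons, was detected in 99 of 103 *Atoh1* cells (median 6 UMIs) at 396 CPM, against 22.2 in all other cells and 92.7 in the neurons. *Pou3f2* was detected in 98 of 103 cells at 359 CPM, against 143 in the other neural cells and 79.6 in the neurons. *Igfbpl1*, a gene of newborn neurons, was at 1153 CPM against 267 and 623.

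Of the 10 other measured bHLH genes of neurogenesis, 3 were called higher than in the other neural cells (*Nhlh1*, *Nhlh2* and *Olig3*) and 3 lower. The proneural gene *Neurog1* was at 5.82 CPM against 22.6 and *Neurog2* at 6.88 against 33.4, with UMIs in 3 and 2 of the 103 cells. *Ptf1a*, which specifies inhibitory dorsal neurons, gave 1 UMI. *Olig3*, a bHLH factor of the dorsal progenitor domains, was at 77.3 CPM (65.2 to 90.8) against 10.0 in the other neural cells and 5.70 in neurons, with a UMI in 68 of 103 cells.

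In the Notch pathway, by which differentiating cells hold back their neighbours, few genes differed by 2-fold from the other neural cells. *Dll3*, a divergent ligand that acts within the cell expressing it, was at 172 CPM (154 to 192) against 18.9 in the other neural cells and 53.3 in neurons, with 0 to 11 UMIs a cell and a median of 3. *Mfng*, a fringe glycosyltransferase, was at 71.4 CPM against 14.5 and 17.9. *Dll1*, the main ligand of neurogenic progenitors, was at 51.9 CPM, against 63.6 in the other neural cells and 11.1 in neurons. *Hes6*, an antagonist of *Hes1*, was at 395 CPM against 214 and 89.1, which was 4.43-fold (4.03 to 4.87) the level of neurons. The receptor *Notch1* was at 43.4 CPM against 77.2 and the effector *Hes1* at 40.7 against 72.9. Of the 20 genes, 2 were called higher (*Dll3*, *Mfng*) and 1 lower than in the other neural cells, that 1 being *Hes5*, which the neural gate had used.

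Genes of neuron onset and cell cycle exit were mostly higher, 11 of 17 against the other neural cells and 4 of 17 against the neurons (*Gadd45g*, *Insm1*, *Srrm4* and *Ebf2*), with none lower in either. Over the neurons *Insm1* and *Srrm4* came under 2-fold when 1 UMI of *Atoh1* sufficed (log2 0.797 and 0.761), and these and *Ebf2* with a pseudocount of 50 CPM (0.735, 0.877 and 0.926). *Gadd45g*, a stress and growth arrest gene of newly committed neurons, was at 392 CPM (364 to 421) against 122 and 72.6. *Insm1*, a zinc finger factor of newborn neurons, was at 96.3 CPM against 11.7 and 37.9. *Srrm4*, a neuronal splicing factor, was at 196 against 48.3 and 83.8, and *Ebf2* at 109 against 9.11 and 33.4. *Ebf1* was at 514 CPM against 73.9 and 310. *Cdkn1c*, a cyclin-dependent kinase inhibitor, was present in all 103 cells at 1965 CPM, against 1194 in the other neural cells and 2534 in the neurons.

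The 15 structural genes of neurons summed to 4265 CPM, against 896 in the other neural cells and 6959 in the neurons. That sum joined unlike cells, since it was 7261 CPM in the 58 *Atoh1* cells that met only the neuron criterion and 458 in the 19 that met only the neural gate. Of these 15 cytoskeletal and RNA-binding genes, 12 were called higher than in the other neural cells, and 7 lower than in the neurons with none higher. *Elavl3*, *Elavl4* and *Stmn2* chose the neurons, so their values there are no finding. *Tubb3* was 7.59-fold (7.18 to 8.03) the level of the other neural cells and 1.19-fold (1.14 to 1.24) that of the neurons. *Map2*, a dendritic microtubule protein, was at 478 CPM against 62.3 and 308. Genes of more mature axons differed in the other direction: the intermediate filament gene *Ina* was at 185 CPM against 551 in neurons, *Nefl* at 189 against 441, *Mapt* at 34.4 against 164 and *Gap43* at 55.6 against 335.

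Among 15 commissural axon guidance genes, 3 were called higher than in the other neural cells and 1 lower. *Dcc*, the netrin receptor, was at 234 CPM (213 to 257) against 35.8, with UMIs in 83 of 103 cells. *Cntn2*, an axonal adhesion molecule, was at 116 against 3.96, and *Nrp2*, a semaphorin receptor, at 282 against 43.6. *Robo3*, which lets commissural axons cross the midline, was at 23.8 CPM against 7.32 in the other neural cells and 66.4 in neurons, in 10 of 103 cells. *L1cam* gave 1 UMI, against 15.2 CPM in neurons. *Boc*, a Hedgehog co-receptor, was at 14.3 against 44.0 CPM in the other neural cells.

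Transmitter genes were barely detected. *Slc17a6*, the vesicular glutamate transporter of dI1 neurons, was at 6.88 CPM (3.66 to 11.8) in 5 cells, against 13.0 in the neurons. The inhibitory genes *Gad2* and *Slc32a1* were at 1.59 and 0 CPM, against 36.8 and 18.9 in the neurons, and both were called lower than there. Of 14 measured factors of other neuron classes, 6 were called lower than in the neurons and none higher. *Lhx1*, of several dorsal and ventral interneuron classes, was at 11.6 CPM (7.29 to 17.6) against 150, *Lhx5* at 7.41 against 56.9, *Isl1* at 7.41 against 53.0 and *Pax2* at 1.06 against 35.6. *Tlx3*, a factor of excitatory dorsal neurons, was detected in 37 of 103 cells at 40.2 CPM, which was higher than the 7.39 of the other neural cells and beside 56.5 in the neurons. *En1*, a homeobox gene of a ventral interneuron class and of the midbrain, was detected in 58 cells at 55.0 CPM, against 29.4 in the other neural cells, 53.4 in the neurons and 13.4 in all other cells, and was called higher than in the last of these.

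Of the 9 measured dorsal progenitor factors, 5 were called lower than in the other neural cells and *Olig3* higher, with a median log2 difference of -1.14 against -0.02 over all genes tested. None was called lower than in the neurons, and 4 were higher there (*Pax3*, *Olig3*, *Zic2* and *Zic5*). With a pseudocount of 50 CPM, *Zic1*, *Gsx1*, *Irx3* and *Irx5* came under 2-fold against the other neural cells (log2 -0.889, -0.312, -0.723 and -0.784). Over the neurons *Pax3* and *Zic2* did so (0.753 and 0.877). The gate for the other neural cells used progenitor genes, so the contrast with them is not independent of how that set was chosen. The 11 factors of the list summed to 785 CPM in the other neural cells. They summed to 706 CPM in the 19 *Atoh1* cells that met only the neural gate and 244 in the 58 that met only the neuron criterion. *Pax3*, a paired-box gene of dorsal progenitors, was at 52.9 CPM (43.0 to 64.4) against 259, *Zic1* at 79.4 against 190, *Irx3* at 21.2 against 67.4 and *Irx5* at 22.2 against 74.4. *Gsx1*, of progenitors further from the roof plate, gave 0 UMIs (up to 1.59 CPM) against 12.1 CPM. *Zic2* and *Zic5* were at 77.3 and 92.1 CPM against 66.3 and 79.4, and the roof plate and dorsal border gene *Msx1* was at 112 CPM against 92.2. None of the 10 measured roof plate genes was called higher or lower than in the other neural cells, and *Gdf7*, a BMP ligand of the roof plate, gave 0 UMIs. Of these 10, 3 were called higher than in the neurons (*Lmx1a*, *Wnt1* and *Msx1*) and 2 higher than in all other cells (*Wnt1* and *Msx1*). The 12 genes of the list summed to 315 CPM, against 241 in the other neural cells and 122 in the neurons. That sum was uneven, with no UMI in 39 of the 103 cells, a median of 1 and up to 175 in a cell. It was 493 CPM in the *Atoh1* cells that met only the neural gate and 522 in those that also met the neuron criterion. Those that met only the neuron criterion had 92.3 CPM and those that met neither 35.2. Ventral progenitor factors, 10 in all, summed to 5.29 CPM (2.54 to 9.73) and 99 of 103 cells had none of their UMIs.

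Cell cycle genes were lower than in the other neural cells. Of 42 S phase genes 32 were called lower, with a median log2 difference of -1.25, and of 52 G2/M genes 37, with a median of -1.35, and none of either list was higher. Among the 12 lowest genes were *Ccnd1* (cyclin D1), at 55.6 CPM against 462, the histone gene *Hist1h1b*, at 241 against 1253, *Rrm2*, at 35.4 against 195, and *Pttg1*, at 22.2 against 147. At 5000 UMIs a cell, 9 of 101 *Atoh1* cells (8.91%, 4.16 to 16.2%) held 2 or more UMIs of *Mki67* plus *Top2a*, against 45.4% (41.7 to 49.2%) of the other neural cells and 7.11% (5.43 to 9.11%) of the neurons. The gate for the other neural cells used progenitor genes, so this contrast is not independent of how that set was chosen. *Afp* and *Apoa2*, endodermal secreted proteins also among the 12 lowest, were at 2.12 CPM each, against 79.4 and 41.0. Without cells over 50000 UMIs their log2 differences were -0.36 and -0.025 in place of -2.88 and -2.08, which is under 2-fold.

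Axial position was read from the *Hox* genes, whose paralogue groups follow the order from hindbrain to tail. In the *Atoh1* cells groups 2 to 10 each gave 201 or more UMIs, group 1 gave 8 and groups 11 to 13 summed to 4. Groups hold 2 to 4 genes each and are compared here between sets of cells only. Group 9 stood at 1113 CPM (1066 to 1161), against 517 in the other neural cells, 811 in the neurons and 11.6 in the endothelial cells, and every 1 of the 103 cells held a UMI of it. *Hoxb9* was detected in 100 of 103 cells at 395 CPM (367 to 424) against 191, *Hoxc9* in 98 at 273 against 197, and *Hoxa9* in 93 at 391 against 107. *Hoxa7*, *Hoxa9*, *Hoxa10*, *Hoxb9* and *Hoxd9* were the 5 of 31 measured *Hox* genes called higher than in the other neural cells. Of these, *Hoxb9* came under 2-fold with a stricter neural gate (log2 0.97), *Hoxb9* and *Hoxd9* when 1 UMI of *Atoh1* sufficed (0.784 and 0.823), and all but *Hoxa9* with a pseudocount of 50 CPM. None was called lower there, and none differed by 2-fold from the neurons. *Hoxc10* was at 172 CPM against 188 in the other neural cells. Of the forebrain and midbrain genes, *Otx2* gave 0 UMIs. *En2* was detected in 28 cells at 23.8 CPM, against 11.9 in the other neural cells and 16.5 in the neurons.

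**Figure D3:**
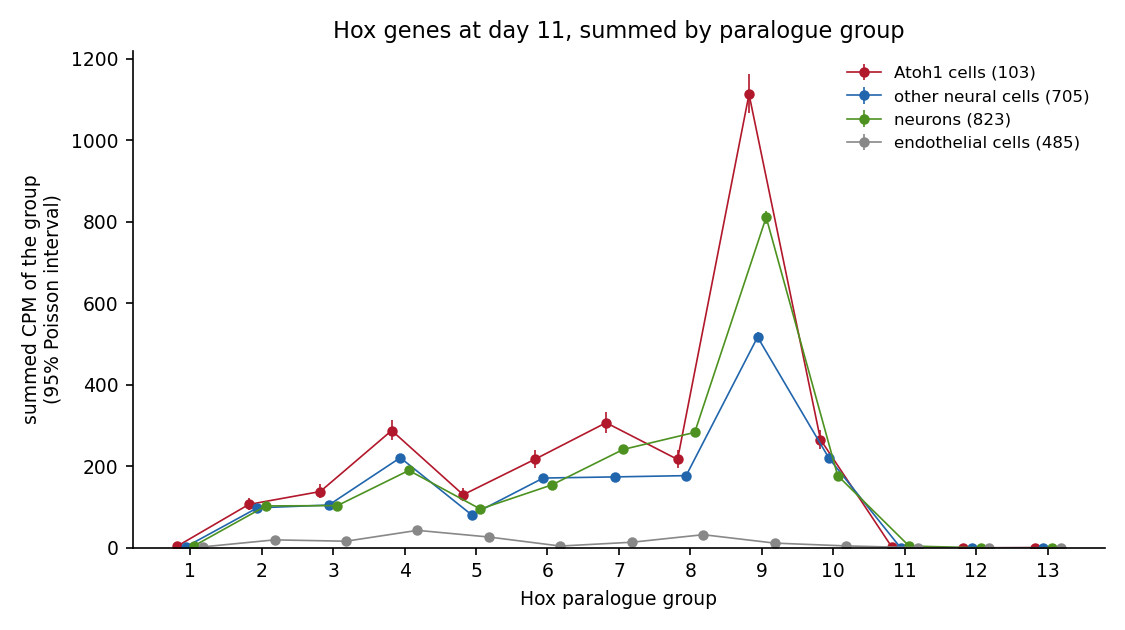
Summed CPM of the *Hox* genes of each paralogue group (horizontal axis, 1 to 13) in the *Atoh1* cells, other neural cells, neurons and endothelial cells of day 11, with 95% Poisson intervals; lines join the groups of 1 set. Group 9 stood at 1113, 517 and 811 CPM in the *Atoh1* cells, other neural cells and neurons, and groups 11 to 13 were near 0 in all 4 sets.

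Genes of other tissues in which *Atoh1* acts were also measured. The 10 hair cell and Merkel cell genes summed to 115 CPM (100.5 to 132), against 33.1 in the other neural cells, 89.8 in the neurons and 103 in all other cells, and 52 of 103 cells had none of their UMIs. The hair cell factors *Pou4f3* and *Gfi1* gave 0 UMIs each, which allows up to 1.59 CPM, and 5 of the 10 were at 0. Of the 6 measured, 3 were called higher than in the other neural cells: *Krt8* and *Krt18*, held by few cells as above, and *Myo6*, a myosin of hair cells and other tissues, at 66.7 CPM (55.5 to 79.4) against 21.8 in 48 of 103 cells. The 6 intestinal secretory genes summed to 4.76 CPM, with no UMI in 100 of 103 cells and none of the 6 measured by the 50-cell minimum. Cerebellar granule progenitor genes were mixed: of 16, *Cntn2* and *Reln* were called higher than in the other neural cells and *Zic1*, *Etv1*, *Ccnd1* and *Ccnd2* lower. *Reln*, a secreted guide of migrating neurons, was at 34.9 CPM against 5.81.

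Signalling pathways of the dorsal neural tube differed at few genes from the other neural cells. Against the neurons, 6 of 22 measured Wnt genes were called higher and 1 lower, beside 0.864% and 1.93% of all genes. Of 23 BMP genes 3 were higher and 2 lower there, and of 11 Hedgehog genes none. Against all other day 11 cells, 5 Wnt genes were higher and 4 lower, beside 2.63% and 3.71% of all genes. Of 23 measured BMP pathway genes, the inhibitor *Smad7* was called higher than in the other neural cells, at 89.4 CPM (76.4 to 104) against 35.9, and *Id4* lower, at 18.0 against 54.8. The BMP target *Id3* was at 505 against 879 and *Id1* at 204 against 329. Of 22 Wnt genes, *Nkd1*, a feedback inhibitor, was called higher than in the other neural cells, at 138 CPM against 37.5 there and 23.6 in neurons. *Wnt4*, *Wnt7b* and *Sfrp2* were called lower than in the other neural cells. *Axin2*, a common Wnt target, was at 44.5 CPM (35.4 to 55.0) against 22.9 and 13.1. Of 11 Hedgehog genes, *Boc* and *Gas1* were called lower than in the other neural cells and none higher. The target *Gli1* gave 1 UMI, and *Ptch1* was at 24.9 CPM against 28.4.

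The 103 cells were then described by the neural gate and the neuron criterion together, a division made with these data known. The gate alone was met by 19 cells, both by 17, the neuron criterion alone by 58 and neither by 9. Both cutoffs are counts of UMIs and depend on depth, which had medians of 11357, 23266, 10955 and 9662 UMIs in these classes. The 17 cells that met both were the deepest, and 6 of them were among the highest 8% of doublet scores, against 3 of 19, 4 of 58 and 0 of 9 in the other classes. Genes that set the classes (*Sox2*, *Hes5*, *Fabp7*, *Elavl3*, *Elavl4* and *Stmn2*) are left out of what follows.

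The 19 gate-only cells had progenitor and dividing-cell genes and almost none of the 4 homeobox factors. *Barhl2*, *Lhx2* and *Lhx9* gave 0 UMIs in them (up to 8.65 CPM) and *Barhl1* gave 2 UMIs, 5.77 CPM. *Msx1* was at 222 CPM, *Wnt1* (the roof plate and dorsal midline Wnt) at 43.3 in 8 cells, *Pax3* at 130 in 12, and *Id1* and *Id3* at 614 and 1358. *Top2a*, a topoisomerase of dividing cells, was at 456 CPM, and at 5000 UMIs 7 of the 19 held 2 or more UMIs of *Mki67* plus *Top2a* (36.8%, 16.3 to 61.6%). *Olig3* was at 80.7 CPM in 15 of the 19 cells, *Hes6* at 519 and *Gadd45g* at 363, while *Tubb3* was at 77.8.

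The 58 neuron-only cells held the opposite pattern. *Barhl1* was at 192 CPM in 52 cells, *Barhl2* at 142 in 34, *Lhx2* at 225 in 34 and *Lhx9* at 219 in 37, and 57 of the 58 had at least 1 of the 4 factors. *Crabp1* was at 7010 CPM, *Tubb3* at 2448, *Pou3f1* at 379 and *Ebf1* at 938. *Msx1* was at 16.4 CPM and *Wnt1* at 0, and *Top2a* was at 74.6. *Olig3* was at 93.6 CPM in 35 cells and *Dll3* was at 286 in 54.

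The 9 cells that met neither criterion had the lowest median depth (9662 UMIs, 7022 to 11138). The 17 neuron onset genes summed to 6574 CPM (6041 to 7142) in them, against 5636 (5472 to 5804) in the neuron-only and 1641 in the gate-only cells. *Dll3* was at 470 CPM (336 to 639) against 286 and 34.6, *Hes6* at 1021 against 347 and 519, *Gadd45g* at 1186 against 424 and 363, and *Rassf4* at 434 against 235 and 49.0. *Top2a* gave 0 UMIs. *Tubb3* stood at 1632 CPM and *Barhl1* at 246, while *Lhx9* was at 47.0 (12.8 to 120) against 219 in the neuron-only cells. With 85181 UMIs in 9 cells, the smallest of these values rest on few UMIs.

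The 17 cells that met both criteria had *Barhl1* at 57.0 CPM, *Tubb3* at 535, *Msx1* at 181 and *Crabp1* at 1232. In these genes they lay between the gate-only and neuron-only cells, but not in all others. Their G2/M genes summed to 2091 CPM, against 8269 in the gate-only cells, 2960 in the neuron-only cells and 1597 in those that met neither. Their *Atoh1*, at 235 CPM, was the lowest of the classes, against 375, 517 and 822 in the same order. Without the 6 cells of high doublet score, the remaining 11 had *Barhl1* at 123 CPM (82.9 to 175), *Tubb3* at 844, *Msx1* at 102 and *Atoh1* at 483 in place of 235. *Myl7*, an atrial myosin light chain, was at 1055 CPM in the 17 and 32.8 in the 11. In the gate-only cells *Myl7* was at 2324 CPM, and at 3148 without 3 cells of high doublet score, against 36.7 in the neuron-only cells, 23.5 in the cells that met neither criterion, 1551 in the other neural cells and 1402 in endothelial cells. Nearly all of the gate-only *Myl7* lay in 1 cell, which held 2717 UMIs of the 12 cardiomyocyte markers. The class value of *Myl7* is therefore not the level of most of its cells. The part of that cell in the other values of the gate-only class was not tested.

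**Figure D4:**
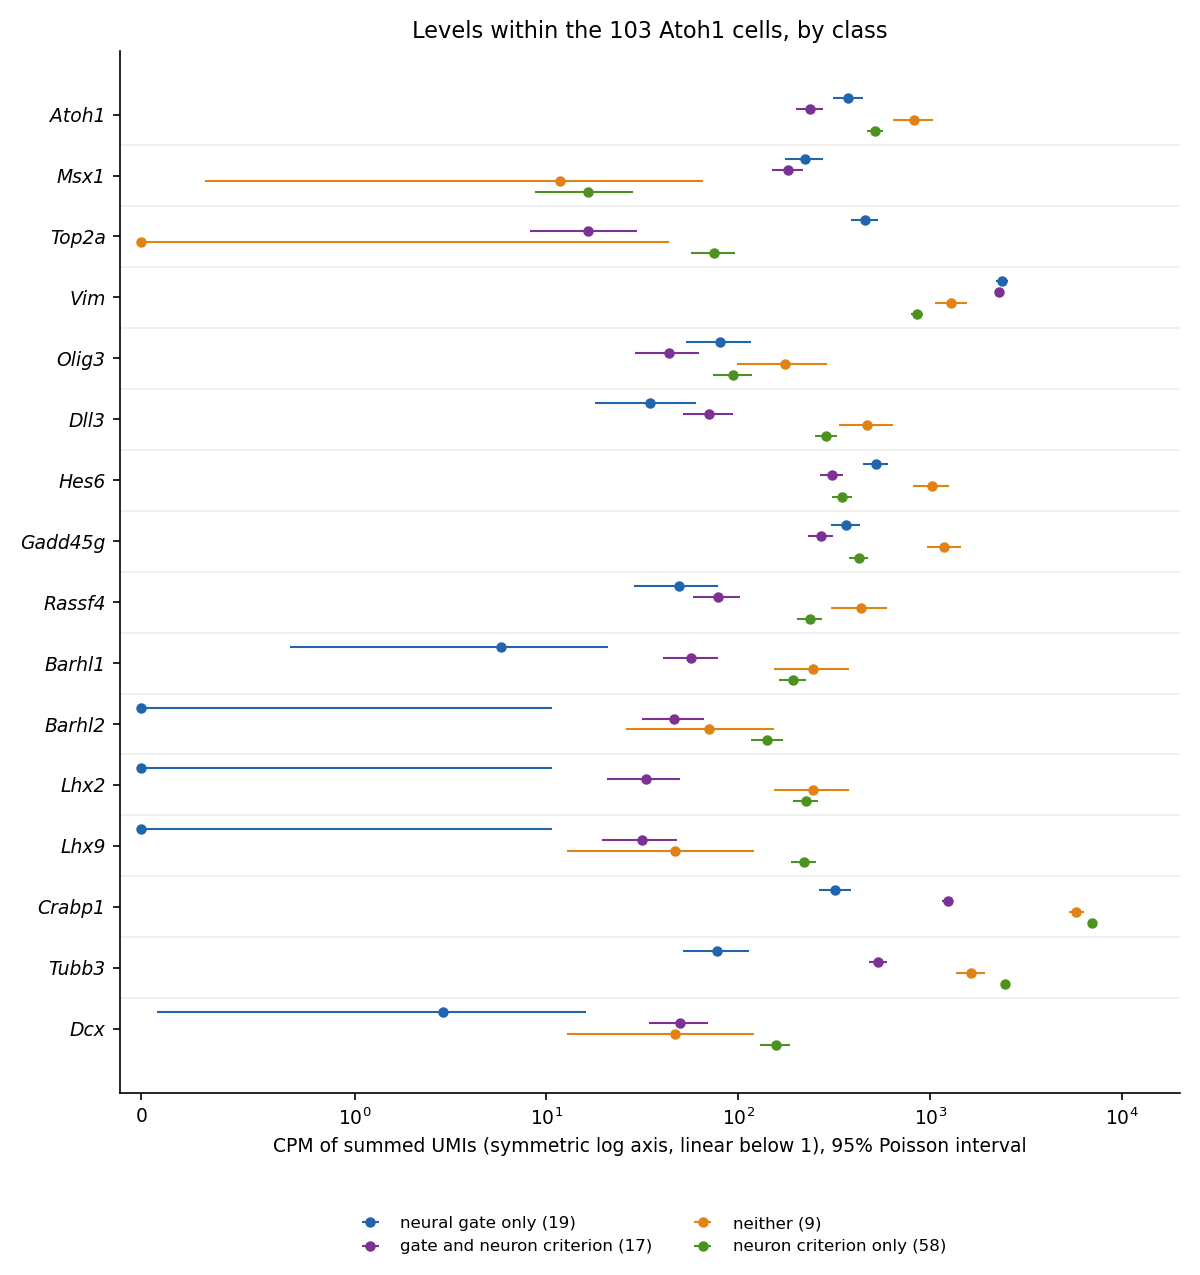
Level of 16 genes within the 103 *Atoh1* cells, split into 4 classes by the neural gate and the neuron criterion, as CPM of summed UMIs on a symmetric log axis that is linear below 1, with 95% Poisson intervals. *Msx1* and *Top2a* were highest in the gate-only cells, *Dll3*, *Hes6*, *Gadd45g* and *Rassf4* in the cells that met neither criterion, and *Barhl2*, *Lhx9*, *Crabp1*, *Tubb3* and *Dcx* in the neuron-only cells.

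Single cells were also placed by genes that did not set the classes. These are progenitor and neuronal genes like those that did, so the order of the classes below is a description and not separate evidence. The UMIs of 8 progenitor genes (*Vim*, *Nes*, *Sox9*, *Sox3*, *Zic1*, *Pax3*, *Msx1* and *Zic5*) had medians of 34.5, 20.04, 15.3 and 9.63 per 10000 UMIs in the gate-only, both, neither and neuron-only cells. Those of 8 neuronal genes (*Tubb3*, *Map2*, *Ina*, *Rtn1*, *Stmn3*, *Dcx*, *Nefl* and *Crmp1*) had medians of 2.35, 19.1, 22.8 and 49.3. The classes overlapped: gate-only cells reached 13.0 neuronal UMIs per 10000 and neuron-only cells went down to 4.32. *Atoh1* itself ranged from 0.113 to 23.8 UMIs per 10000, with a median of 4.52.

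**Figure D5:**
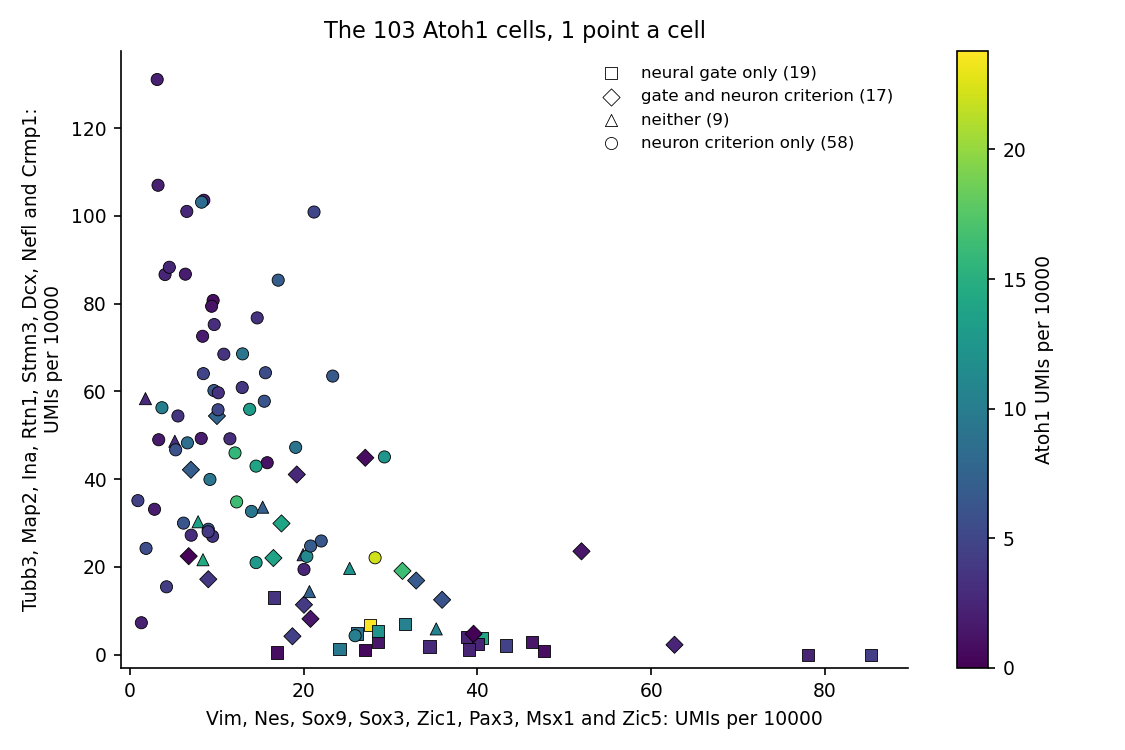
Each point is 1 of the 103 *Atoh1* cells, placed by the UMIs per 10000 of 8 progenitor genes (horizontal axis) and 8 neuronal genes (vertical axis), with the class as the symbol and *Atoh1* UMIs per 10000 as the colour. Neuron-only cells rose to 131 neuronal UMIs per 10000 and gate-only cells stayed at 13.0 or below.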

How the data were processed

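Single-cell RNA sequencing (Chromium 3' libraries) was read from the deposited count matrices, 1 library a day, which hold UMI counts per gene and cell barcode. The labels name Cell Ranger 3.1.0 and mm10 for all samples, while the header of the day 11 matrix names Cell Ranger 6.0.1 and those of the other days 3.1.0. The authors' filters were not applied here. Barcodes with under 2000 UMIs or a mt- share of 20% or more were left out, keeping 5850 to 8730 cells a library from totals of 149169498 to 236714826 UMIs. The deposited counts were summed over the cells of each set and scaled to CPM, with exact Poisson, exact conditional binomial (ratios) and Clopper-Pearson (shares) intervals at 95%, for counting error only. A floor is 3 counts. Genes with a UMI in fewer than 50 kept cells were not called. Named genes were those of the lists, and the 12 highest and 12 lowest (CPM + 10) ratios to the other neural cells and the 12 highest to all other cells, without mt- and ribosomal protein genes. Some genes that met this rule are not reported here. The members, sets and lists were chosen with earlier results of these data known. Shares were compared after thinning each cell to 5000 UMIs. Doublets were left in: Scrublet (scanpy 1.11.5) marked 1 of 8730 cells by its automatic threshold and had not worked, so the top 8% of scores, 698 cells, were removed only as an alternative. The calling script was tested on simulated data. Python 3.11.15, numpy 2.4.6 and scipy 1.17.1 were used. Coordinates are those of GENCODE M21 and sequences those of RefSeq on GRCm38.p6. As the counting of strand is not given in the sources used here, overlapping genes cannot be told apart. CPM from 3' libraries were compared between cells for 1 gene, not between genes.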

Additional observations from a re-analysis of the deposited data

How the results depend on the processing

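No paired analysis was possible because each day was 1 library. The 4 counts of genes 2-fold higher and lower than the other neural cells and higher and lower than all other cells were 239, 269, 399 and 562. They became 819, 1042, 1053 and 2107 with a pseudocount of 1 CPM and 72, 55, 120 and 128 with 50, and the list genes higher than in the other neural cells 30 in place of 46, because the pseudocount sets how large a difference a low gene needs. Genes lower than in the other neural cells numbered 139 when 1 UMI of *Atoh1* sufficed and 447 in cells thinned to 5000 UMIs. Those lower than in all other cells numbered 851 without the top doublet scores and 919 after thinning. The cause was not tested. All other counts, including those without cells over 50000 UMIs, an alternative chosen after seeing the data, moved by less than 1.5 times. The share of *Atoh1* cells was 1.52% with 1 UMI and 0.787% after thinning. At days 4 to 6 together 2 cells met 2 UMIs, 7 met 1 UMI and 0 met 2 UMIs after thinning. Among named genes past 2-fold against the other neural cells, *Apoa2* turned from -2.08 to 0.079 (log2) under the stricter neural gate (*Sox2* of 2 or more, *Hes5* plus *Fabp7* of 5 or more), and *Afp* came from -2.88 to -0.13; without cells over 50000 UMIs they were -0.025 and -0.36. Of 4 markers held by few cells, *Cdh5* turned from 1.29 to -1.113 with 3 or more UMIs of *Atoh1*; without the top doublet scores *Cdh5*, *Krt8*, *Krt18* and *Epcam* were at -0.699, -0.166, -0.307 and -0.309, and without cells over 50000 UMIs at -0.187, -0.004, -0.036 and -0.323. *Hoxb9* came to 0.97 under the stricter gate, and to 0.78 when 1 UMI of *Atoh1* sufficed, where *Hoxd9* (0.82), *Etv1* (-0.79), *Wnt4* (-0.75), *Sfrp2* (-0.91) and *Mki67* (-0.99) and *Cdh5* (0.92) also came under 2-fold. *Neurog1* was at -0.94 with 3 or more UMIs of *Atoh1*. With the pseudocount of 50 CPM 30 named genes came under 2-fold. Against the neurons, 53 named genes were past 2-fold and their values came under it 40 times over the alternatives, 23 of these with the pseudocount of 50 CPM and 6 when 1 UMI of *Atoh1* sufficed. Leaving out a replicate gave no value with 1 library a day. With 103 cells of 1 library and 1889944 UMIs, a gene at 0 UMIs could be at up to 1.59 CPM (3 UMIs, counting error only), and differences between gastruloids or cultures could not be measured.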

Other observations

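The library also held 64 neurons without *Atoh1* (fewer than 2 UMIs) but with *Barhl1* plus *Barhl2* of 2 or more UMIs, 7.78% of the 823 neurons, a set chosen after its values were seen. Their depth (median 9931 UMIs) was near that of the other 759 neurons (10137). *Atoh1* was at 5.18 CPM in them, 4 UMIs in all, against 405 in the *Atoh1* cells. Beside the Barhl genes that chose them, *Lhx2* was at 161 CPM, against 8.60 in the other neurons and 117 in the *Atoh1* cells. *Lhx9* was at 351 against 9.59 and 105, *Crabp1* at 9093 against 1224 and 3688, and *Pou3f1* at 654.5 against 55.9 and 201. *Lhx1*, at 160 CPM in the other neurons, was at 5.18, and *Gad2*, at 39.3, gave 0 UMIs. Relative to the *Atoh1* cells, *Gadd45g* was at 40.2 against 392 CPM, *Hes6* at 73.9 against 395, *Dll3* at 85.5 against 172 and *Olig3* at 10.4 against 77.3. *Nhlh2* was at 161 against 124 CPM, a ratio of the *Atoh1* cells to these neurons of 0.770 (0.617 to 0.966), and *Nhlh1* at 27.2 against 52.9.

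Genes of later neurons were higher in those 64 neurons than in the 103 *Atoh1* cells. All 64 met the neuron criterion, against 75 of the 103. This contrast is therefore not independent of how the sets were chosen, nor are those with the *Atoh1* cells in the paragraph before. *Tubb3* was at 2411 CPM in the 64 neurons and 1301 in the 103 cells. It was at 2712 in the 54 neuron-only *Atoh1* cells without high doublet scores. The genes below were not compared with the neuron-only cells. *Slc17a6*, the vesicular glutamate transporter, was at 86.8 CPM (67.3 to 110) against 6.88, a ratio of the *Atoh1* cells to these neurons of 0.0792 (0.0401 to 0.145). *Robo3* was at 83.0 against 23.8, *Ina* at 1443 against 185, *Mapt* at 363 against 34.4 and *Stmn2*, part of the criterion for neurons, at 2014 against 464. *Hoxa9* was at 916 CPM against 391. *Cntn2* was at 113 against 116 and *Dcc* at 226 against 234, ratios of 1.03 (0.798 to 1.33) and 1.04 (0.870 to 1.25).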
